A study of Danio rerio with 40 samples.

Results

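The promoter of *cyp19a1a*, the gene of gonadal aromatase, was followed CpG site by CpG site in zebrafish ovaries and testes. The amplicon covers 470 bases on chromosome 18 of GRCz11, from 39655109 to 39655578, and the gene is read from the minus strand. Of these bases, 326 lie before the transcription start at 39655252 and 144 from the start onwards. It holds 15 of the 99 CpG sites counted for the 6 amplicons of the series, 9 of them before the start and 6 after it. The 15 sites were taken as the 15 most deeply covered cytosines listed between these coordinates, and all were kept, since each was covered by more than 5 reads in each of the 40 fish. They gave 600 values, 1 per site and fish.

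The assay was Methylation Bisulfite Sequencing (MBS). Bisulfite turns unmethylated cytosines into bases that are read as thymine, a region is amplified by PCR and the copies are sequenced. The methylation level of a site is the percentage of its reads that kept the cytosine. The gonads came from zebrafish of the AB strain at 90 days of age, with 10 ovaries and 10 testes in each of 2 rearing groups. Control fish were kept at 9 fish/L, and the others were confined at a high density of 66 fish/L from 18 to 45 days post-fertilization (dpf). The controls received no other treatment, and no group carries a transgene or a mutation. All these fish are described as members of 1 family, whose number differs between the results and the methods of the study. Whether fish of a group shared a tank is not given in the sources used here. The *p*-values below therefore measure the spread between these fish. No marker of a tissue or cell type was measured here, and the sex of a gonad is as labelled.

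Aromatase converts androgens into estrogens. In fish gonads it is a product of the ovary, where estrogens maintain female differentiation, and it is low in the testis. DNA methylation of a promoter is commonly associated with a gene that is not transcribed. Expression was not analysed here. Each gonad was measured as a whole, so a different mix of cell types and a different level within a cell type cannot be told apart.

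The ends of the amplicon are set by its primers, which decide which molecules were counted and are shown here for that reason. Each is written 5′ to 3′, with the capitals marking the bases that tell the strands of converted DNA apart, G in the forward primer and C in the reverse primer.
cyp19a1a forward: tattttttGtttGtttGtaGGtttGat
cyp19a1a reverse: CaaCaatattataaCtataaCtCCaCaC
The forward primer of 27 bases contains 0 C and the reverse primer of 28 bases contains 0 G, and neither holds a CG pair. Placed at the ends of the amplicon, they cover 39655552 to 39655578 and 39655109 to 39655136, and 0 of the 15 sites lie inside them. The outermost site after the start, at 39655137, is the base next to the reverse primer. None of the sites was therefore read from a primer.

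Distances below are in bases, with a minus sign before the start. The sites before the start lie at −269 (39655521), −263 (39655515), −258 (39655510), −152 (39655404), −149 (39655401), −117 (39655369), −112 (39655364), −45 (39655297) and −7 (39655259). Those after it lie at +38 (39655215), +43 (39655210), +48 (39655205), +51 (39655202), +90 (39655163) and +116 (39655137). Neighbours are between 3 and 106 bases apart, and the widest gap separates −258 from −152. The sites thus form small clusters, with 3 of them around −263 and 4 between +38 and +51.

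Coverage was deep in all fish but 1. The median coverage of the 15 sites was between 990 and 39060 reads in ovaries at 9 fish/L, between 1005 and 26318 in ovaries at 66 fish/L and between 4482 and 36948 in testes at 9 fish/L. In testes at 66 fish/L, 9 fish had between 8211 and 32045 reads, and testis G24 had 37. At a single site, counting reads alone gives a standard error of 0.242 to 1.498 percentage points in an ovary. In testis G24 it is 7.57 points, and a floor set here at 3 methylated reads is 8.11% of its 37 reads. The methods name a deduplication step. Reads of this amplicon share the ends set by its primers, however, so their positions cannot mark copies of 1 molecule made by PCR. The reads are not taken as separate molecules here. These errors therefore cover counting only. Testis G24 was also the testis with the lowest level, at 69.5%, and the main comparisons of sex and density are given with and without it. The 95% Wilson interval of its level ended at 75.9% at −152 and at 88.6% at +38, below the lowest of the other testes of its group (88.0% and 92.5%). That interval covers the counting of reads only, and the number of molecules behind the 37 reads was not measured.

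The *cyp19a1a* promoter was methylated in both sexes, at an intermediate level in ovaries and on nearly all reads in testes. Averaged over the 15 sites, ovaries at 9 fish/L had a methylation level of 39.3% ± 7.37 (SD, n = 10), with a lowest level of 29.0% in ovary G1, a median of 39.6% and a highest level of 50.2% in ovary G6. Ovaries at 66 fish/L had 35.9% ± 7.48 (SD, n = 10), from 24.5% in ovary G16 over a median of 35.5% to 47.5% in ovary G12. The ranges of the ovaries overlapped over most of their width.

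Testes at 9 fish/L reached 93.9% ± 1.06 (SD, n = 10), from 92.3% in testis G26 over a median of 93.8% to 95.9% in testis G3. In testes at 66 fish/L the level was 91.4% ± 7.78 (SD, n = 10), with a lowest level of 69.5% in testis G24, a median of 94.0% and a highest level of 95.4% in testis G23. Without testis G24, the same group had 93.9% ± 1.25 (SD, n = 9) and a lowest level of 91.0% in testis G21. All testes stood above all ovaries, testis G24 included.

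**Figure D1:**
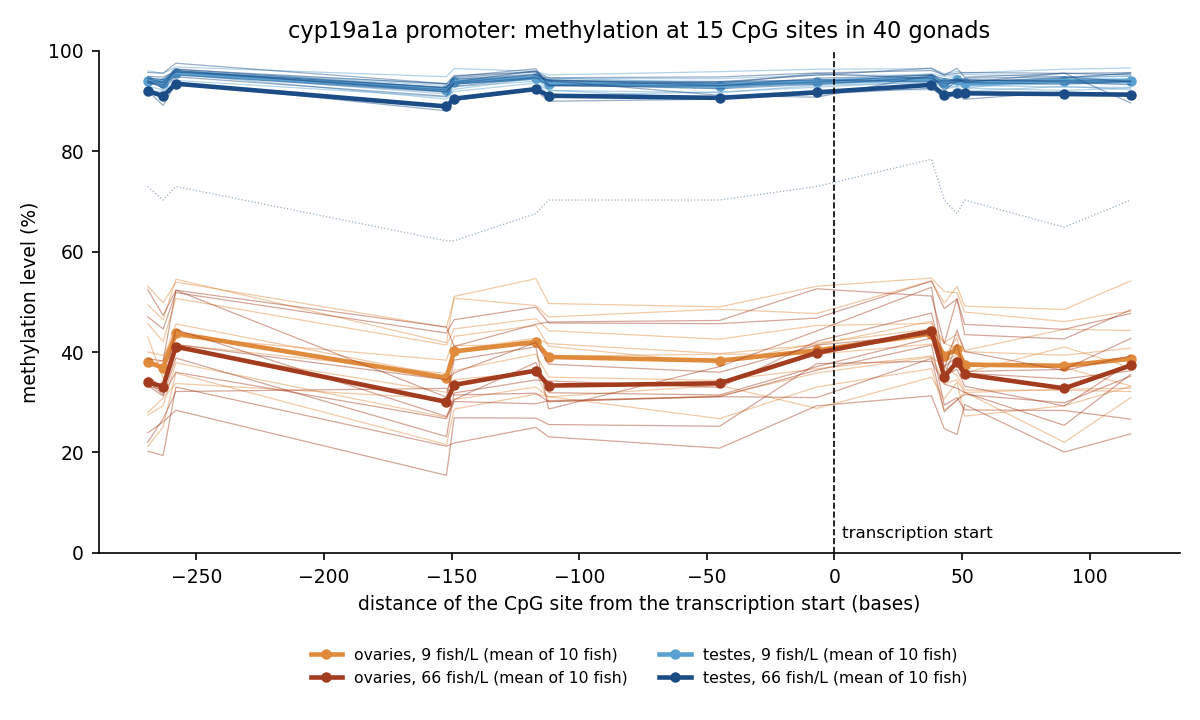
Methylation level (%) at the 15 CpG sites of the *cyp19a1a* promoter against the distance of the site from the transcription start (bases, dashed line at the start). Thin lines are single fish, thick lines with points are means of 10 fish per group, and the dotted thin line is testis G24. The lines of ovaries and testes do not cross at any site, and the dotted line runs between 62.2% and 78.4%.

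The sex difference was 55.0 ± 2.08 percentage points (SE, n = 40 fish), with testes higher than ovaries (two-sided permutation of sex labels inside each density, 100000 resamples, *p* = 1e-05, the smallest the resamples can give, adjusted *p* = 1.08e-05). Adjusted *p*-values of levels were taken over 14 regions by the Benjamini-Hochberg method, namely the 6 amplicons and both sides of the start in the 4 amplicons with sites on both sides. Of these regions 92.9% passed the threshold of 0.05 for sex, so that a sex difference as such is common to most of them. The difference was 54.5 ± 2.35 points (SE, n = 20) at 9 fish/L and 55.6 ± 3.41 points (SE, n = 20) at 66 fish/L (exact permutation tests, two-sided, *p* = 1.08e-05 for each, adjusted *p* = 1.17e-05). Before the start it was 55.4 ± 2.15 points and after the start 54.5 ± 2.004 points (SE, n = 40, adjusted *p* = 1.08e-05 by the same permutation test). Without testis G24 the sex difference was 56.3 points in all, 56.7 before and 55.7 after the start, and 58.0 points at 66 fish/L, and each of these kept its call.

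At each of the 15 sites, testes were called higher than ovaries (permutation test with 100000 resamples, adjusted *p* = 1.72e-05 over 117 cytosines). Among all 117 cytosines tested in the 6 amplicons, 48.7% were called higher and 20.5% lower in testes, or 69.2% in either direction, and the share at an unadjusted *p* under 0.05 was also 69.2%. In 15 of the 15 sites every testis was above every ovary, against 29.1% of the cytosines tested. That share includes these 15 sites and also cytosines near 0% in both sexes, such as those of the *dnmt1* amplicon. The smallest gap between the lowest testis and the highest ovary was 11.1 points, at −149, and the widest was 23.7 points, at +38. Without testis G24 these gaps ranged from 35.4 points at +116 to 43.3 points at +90. The sites share reads and fish, so their counts are not independent of each other.

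The site at −152 had the widest sex difference, 58.1 points. Its levels were 21.6% at the lowest, 35.5% at the median and 44.9% at the highest in ovaries at 9 fish/L, and 15.4%, 29.1% and 45.0% in ovaries at 66 fish/L. Testes had 90.4%, 92.2% and 94.8% at 9 fish/L, and 62.2%, 92.0% and 93.4% at 66 fish/L. It was the least methylated site of the amplicon in both sexes, and was the lowest of the 15 sites in 8 of 20 ovaries and in 15 of the 19 testes other than G24.

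The smallest sex difference, 49.9 points, belonged to +38, the first site after the start. Ovaries had 35.0% at the lowest, 43.1% at the median and 54.7% at the highest at 9 fish/L, and 31.3%, 43.2% and 54.1% at 66 fish/L. In testes the values were 92.3%, 94.1% and 96.4% at 9 fish/L, and 78.4%, 94.9% and 96.5% at 66 fish/L. This was the most methylated site in ovaries. It lay above the mean of the own fish in 20 of 20 ovaries, by 6.33 ± 3.05 points (SD, n = 20), and was the highest site in 11 of them.

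The outermost site, −269, was the one that varied most between ovaries, with an SD of 10.3 points over 20 fish. Its level ran from 21.2% over a median of 38.6% to 53.1% in ovaries at 9 fish/L, and from 20.3% over 33.7% to 52.4% at 66 fish/L. Testes ran from 91.8% over 94.3% to 96.0% at 9 fish/L, and from 73.0% over 94.0% to 95.7% at 66 fish/L. Ovaries thus differed from each other by more than 30 points at this site, whereas testes other than G24 stayed within a few points.

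The spread between ovaries was smallest at +51, with an SD of 6.39 points. Levels there were 27.2%, 36.9% and 49.1% (lowest, median and highest) in ovaries at 9 fish/L and 28.5%, 34.5% and 45.5% at 66 fish/L. In testes they were 91.9%, 93.3% and 95.6% at 9 fish/L and 70.3%, 94.0% and 95.7% at 66 fish/L. Even at this site the SD of ovaries was several times that of the 19 testes other than G24, which was 1.30 points.

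At −258, the innermost of the outer cluster, ovaries at 9 fish/L had 33.7%, 42.3% and 54.5% (lowest, median and highest) and those at 66 fish/L 28.4%, 40.1% and 52.3%. Testes had 94.1%, 95.8% and 96.8% at 9 fish/L and 73.0%, 95.8% and 97.5% at 66 fish/L. The site was the most methylated in testes and the one after +38 in ovaries, and it was the highest of the 15 in 16 of the 19 testes other than G24. Its neighbour −263, 5 bases away, had an ovary mean of 35.0% against 42.4%.

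The site next to the start, −7, had 28.8%, 40.5% and 53.1% (lowest, median and highest) in ovaries at 9 fish/L and 29.3%, 39.5% and 52.6% at 66 fish/L. Testes had 92.2%, 93.8% and 96.3% at 9 fish/L and 73.0%, 94.0% and 95.6% at 66 fish/L. Its sex difference of 52.7 points was among the 3 smallest, together with those of +38 and −258.

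The other 9 sites followed the same order of the sexes. Before the start, −263 ranged from 19.4% to 49.8% in the 20 ovaries (median 33.2%) and had a median of 93.7% in the 20 testes. The site at −149 ranged from 21.9% to 51.1% in ovaries (median 36.1%), with a median of 93.7% in testes. That at −117 was higher than both, with 24.998% to 54.6% in ovaries (median 40.3%) and a median of 94.7% in testes.

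Next to it, −112 ranged from 23.1% to 49.7% in ovaries (median 34.6%) with a testis median of 93.7%. The site at −45 ran from 20.9% to 49.0% (median 35.2%) with a testis median of 93.0%. Both lay below the mean of their own fish in most gonads, −45 in 17 of 20 ovaries and in 19 of 19 testes other than G24.

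After the start, +43 ranged from 24.7% to 52.1% in ovaries (median 36.9%) with a testis median of 93.5%, and +48 from 23.6% to 53.1% (median 39.2%) with a testis median of 94.0%. The sites nearer to the reverse primer were alike in range. In ovaries +90 ran from 20.1% to 48.5% (median 35.5%) and +116 from 23.7% to 54.2% (median 36.6%), with testis medians of 94.3% and 93.8%. At +43, +48, +90 and +116 the lowest testis value was that of G24, between 64.9% and 70.3%.

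Ordered by their mean level in ovaries, the sites ran from +38 (43.9%) and −258 (42.4%) over −7, +48, −117, +116, +43, −149, +51, −112, −45, −269 and +90 to −263 (35.0%) and −152 (32.5%). In the 19 testes other than G24 the order began with −258 (95.7%), −117 (94.9%) and +38 (94.6%) and ended with −112 (93.4%), −45 (93.0%) and −152 (92.1%). Neighbours in this order differed by less than 1 SD of their difference within a fish in 14 of 14 pairs in ovaries and in 13 of 14 in testes. The exception was −258 over −117 in testes, by 0.80 ± 0.74 points (SD, n = 19).

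The order was shared in part between the sexes, although their levels were far apart. The site −152 ranked 15 in both, whereas +90 ranked 13 in ovaries and 5 in the 19 testes. Across the 15 sites, the ovary means and the means of the 19 testes correlated with r = 0.790 (Spearman's rho = 0.686). Between densities, the site means correlated with r = 0.854 in ovaries and r = 0.962 in testes other than G24. The sex difference of a site and its ovary mean correlated with r = −0.977 (rho = −0.986). The ranking of sites by sex difference thus largely restates that by ovary level. These are descriptions over sites that share reads and fish, and no test was made. The level had no clear course along the amplicon, with r = 0.159 in ovaries and r = −0.060 in testes between the site mean and the signed distance from the start.

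An ovary that was high at 1 site was high at the others. Over the 20 ovaries, the 105 pairs of sites had correlations between r = 0.696 (−152 with +116) and r = 0.968 (−263 with −45), with a median of 0.898. Pairs at most 50 bases apart had a median r of 0.920 and those over 200 bases apart 0.887, so that the relation spanned the amplicon. Of the variance of the ovary values, 77.7% lay between fish, 12.2% between sites and 10.1% was left over. The SD of fish means was 7.45 points, against a median counting error of 0.586 points at a single site.

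In percentage points, the testes varied far less. Their levels lie near the top of the percentage scale, where less spread in points is possible. This also holds for the spreads at single sites given above, and spread was not compared on another scale. In the 19 testes other than G24, the SD of fish means was 1.12 points, against a median counting error of 0.160 points. The correlations between sites ranged from r = 0.425 (−269 with +116) to r = 0.903 (−149 with +90), with a median of 0.785. Here 53.6% of the variance lay between fish and 28.7% between sites. With testis G24 included, 94.1% lay between fish, so that this 1 fish decides that share.

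The extremes show the same. Ovary G6 at 9 fish/L, the highest with 50.2%, had sites between 44.9% and 54.2%. Ovary G16 at 66 fish/L, the lowest with 24.5%, had sites between 19.4% and 33.03%. The first was above the second at 15 of 15 sites, by 18.4 to 32.9 points. Testis G3 at 9 fish/L (95.9%) was likewise above testis G21 at 66 fish/L (91.0%) at 15 of 15 sites, by 3.21 to 6.79 points. These fish were chosen as the ends of their sex, so their order is given as a description.

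A few single values left the pattern of their fish and site. They were chosen for their size after all values had been seen. In testis G25 at 66 fish/L, +116 had 89.6% of 28606 reads where the mean of that fish and of that site would give 93.6%, and −7 had 90.7% of 28613 reads where they would give 93.6%. In the same testis +90 was higher than so expected, 95.6% against 93.9%. The counting error at these sites was at most 0.145 points. In ovaries the widest departures were −112 in ovary G2 at 66 fish/L, with 28.7% of 1986 reads against 38.5%, and −152 in ovary G26 at 66 fish/L, with 15.4% of 8104 reads against 23.8%.

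**Figure D2:**
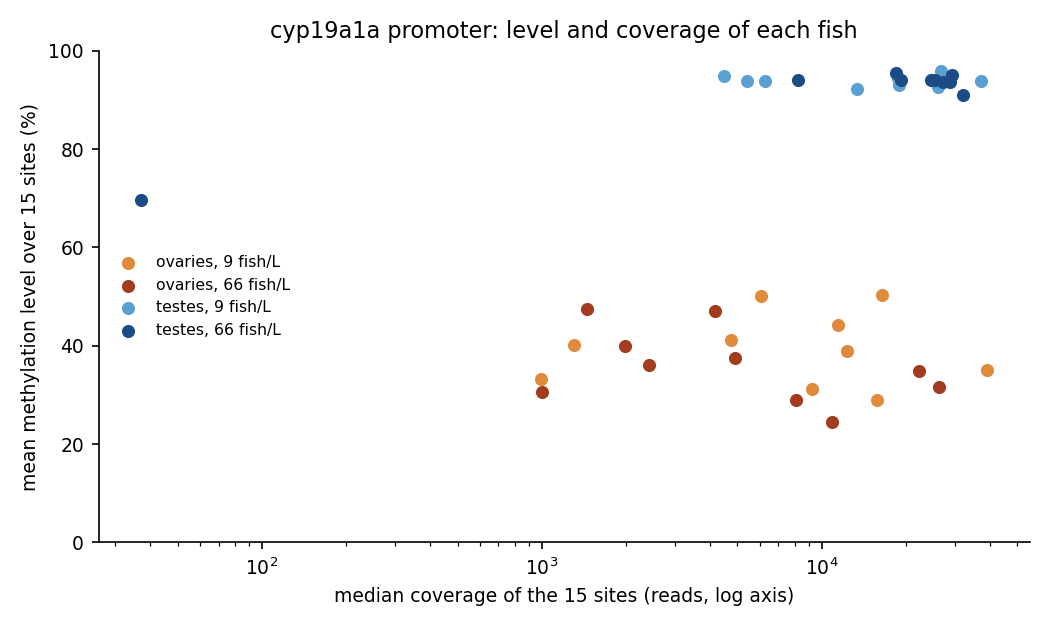
Mean methylation level over the 15 sites (%) of each fish against the median coverage of these sites (reads, log axis), 1 point per fish and 1 colour per group of 10. The ovaries lie between 24.5% and 50.2% and 19 testes between 91.0% and 95.9%, while testis G24 has 69.5% at 37 reads.

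No relation between level and coverage was detected in ovaries, with r = −0.201 (*p* = 0.401) and rho = −0.147 (*p* = 0.535, permutation tests with 100000 resamples, n = 20). Without the 2 ovaries farthest from the median coverage r was −0.113. Within densities it was −0.142 at 9 fish/L and −0.392 at 66 fish/L. In testes r was 0.414 (*p* = 0.0492, adjusted *p* = 0.0985 over both relations) and rho −0.030 (*p* = 0.902, permutation tests). Without the 2 testes farthest from the median coverage, r was −0.069. Within densities it was 0.047 at 9 fish/L and 0.681 at 66 fish/L, the group that holds testis G24.

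Rearing density was the question of the study, and its difference at *cyp19a1a* was smaller than the spread between fish in both sexes. The ovaries at 66 fish/L had a level lower by 3.48 ± 3.32 points on average (difference −3.48, SE, n = 20, two-sided exact permutation test, *p* = 0.305, adjusted *p* = 0.772). In testes the difference was −2.43 ± 2.48 points (SE, n = 20, exact permutation test, *p* = 0.501, adjusted *p* = 0.732). Without testis G24 it was 0.004 points (n = 19, exact permutation test, *p* = 0.9945). Of the 14 regions, 0% passed the threshold in either sex. The size of the difference in ovaries also depended on single fish. It was −2.29 points without ovary G2 at 9 fish/L, −2.27 without ovary G6 at 9 fish/L and −2.22 without ovary G16 at 66 fish/L. In the other direction, it was −4.77 without ovary G12 at 66 fish/L, −4.73 without ovary G11 at 66 fish/L and −4.63 without ovary G1 at 9 fish/L.

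On the sides of the start, the difference in ovaries was −4.25 ± 3.43 points before it (SE, n = 20, exact permutation test, *p* = 0.228) and −2.32 ± 3.23 points after it (*p* = 0.478, same test), both with an adjusted *p* of 0.772. In testes it was −2.53 ± 2.52 points before (SE, n = 20, exact permutation test, *p* = 0.451) and −2.27 ± 2.43 points after the start (*p* = 0.575), both with an adjusted *p* of 0.732. Without testis G24 these were −0.065 points before (exact permutation test, *p* = 0.908, n = 19) and 0.107 points after the start (*p* = 0.849). The density difference in testes minus that in ovaries was 1.05 points (interaction, permutation of residuals with 100000 resamples, *p* = 0.80, adjusted *p* = 0.990). The interaction was 1.72 points before and 0.051 points after the start, with an adjusted *p* of 0.990 each. Without testis G24 it was 3.49 points in all, 4.19 before and 2.43 after the start (adjusted *p* = 0.606, 0.606 and 0.656, same permutation test, n = 39).

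**Figure D3:**
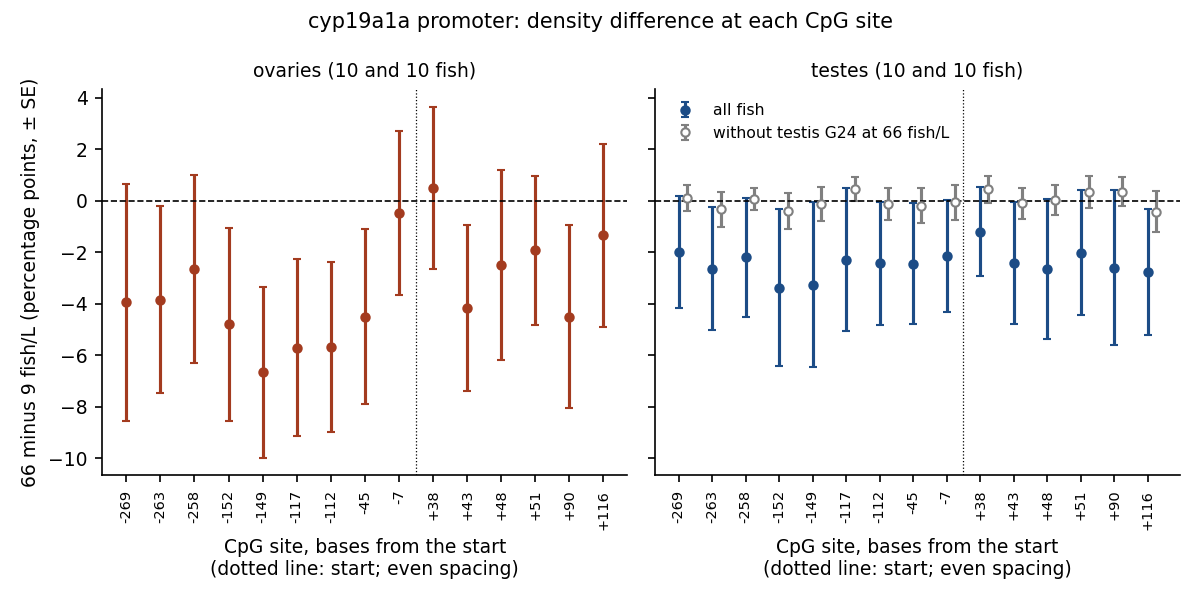
Difference in methylation level between 66 and 9 fish/L (percentage points) at each of the 15 CpG sites, in order along the amplicon with even spacing, for ovaries (left) and testes (right). Points are differences between means of 10 and 10 fish with bars of 1 SE, and open points leave out testis G24. In ovaries 14 of 15 points lie below 0, and in testes the open points lie between −0.43 and 0.47.

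Site by site, 0 of 15 sites were called for density in ovaries and 0 of 15 in testes by the exact permutation test. Over all cytosines tested the shares were 0% of 117 and 0% of 120, with 4.27% and 4.17% at an unadjusted *p* under 0.05. At that unadjusted level 0 of the 15 sites passed in either sex. The quasi-binomial model on the reads of a site also called 0 of 15 in each sex after adjustment. In ovaries the unadjusted *p* of this model was under 0.05 at −149 (0.00920), −112 (0.0165), −117 (0.0179), −152 (0.0421) and −45 (0.0439). It was not at the other sites, nor at any site in testes, and the lowest adjusted *p* in ovaries was 0.432. The share of all 117 cytosines under 0.05 in this model is not given here, and the 4.27% above belongs to the permutation test. The named sites share reads and fish, so they cannot be read as separate hits.

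In ovaries, the mean was lower at 66 fish/L at 14 of the 15 sites, with a median difference of −3.95 points. Over all 117 cytosines tested the median difference was −0.65 points, and 67.5% were below 0. These include the *dnmt1* amplicon, at 0.605% in ovaries at 9 fish/L, where a drop of several points is not possible. Over whole amplicons the difference in ovaries was −3.58 points at *dmrt1*, −2.84 at *cyp11c1* and −1.58 at *hsd17b1*. It was −0.289 at *hsd11b2* and −0.236 at *dnmt1*, and none of these was called. At *dnmt1* the exact permutation *p* was 0.0315 (adjusted *p* = 0.440, n = 20). The study reported a significantly lower level of *dnmt1* in ovaries of the high density. Among the 15 sites, the largest difference was at −149. There, levels ran from 28.6% over a median of 40.8% to 51.1% at 9 fish/L and from 21.9% over 31.6% to 46.4% at 66 fish/L, and the groups overlapped. The difference of −6.66 points had an exact permutation *p* of 0.0612 (adjusted *p* = 0.934, n = 20).

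The 4 sites from −152 to −112 had differences between −6.66 and −4.80 points. The sites on both sides of the start had the differences nearest to 0, with −0.47 points at −7 and 0.51 points at +38, the only site with a higher mean at 66 fish/L. Farther in, +90 had −4.50 and +43 −4.18 points. Given the SD of 6 to 10 points between ovaries, none of these passed the test.

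Testes at 66 fish/L had lower means at 15 of 15 sites, from −3.38 points at −152 to −1.20 points at +38. Over all 120 cytosines tested in testes, 40% were below 0. Without testis G24 the differences at the 15 sites ranged from −0.43 points at +116 to 0.47 points at −117, and lay on both sides of 0. The direction in testes thus rested on that fish.

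Both sides of the start were compared within each fish, since they are read from the same molecules. In ovaries, the 9 sites before the start were on average 1.20 ± 2.26 points lower than the 6 sites after it (before minus after −1.20, SD, n = 20, two-sided sign-flip permutation test with 100000 resamples, *p* = 0.0215, adjusted *p* = 0.0268). It was below 0 in 16 of 20 ovaries. In testes the difference was −0.27 ± 0.44 points (SD, n = 20, sign-flip permutation test, *p* = 0.0121, adjusted *p* = 0.0121) and was below 0 in 14 of 20 fish, and without testis G24 it was −0.22 ± 0.39 points (n = 19). The adjustment is over the 4 amplicons with sites on both sides, of which 100% were called in each sex.

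This difference is small beside the spread between sites, and in ovaries it depended on how sites are averaged. With the median over the sites of each side in place of the mean it was −0.997 points (sign-flip permutation test, adjusted *p* = 0.0684). The sexes did not differ in it beyond the threshold (testes minus ovaries 0.93 points, permutation test within density, *p* = 0.0623, n = 40, adjusted *p* = 0.0623), while 75% of the 4 amplicons passed it. That call was made when ovary G5, G14 or G15 at 9 fish/L or ovary G11 at 66 fish/L was left out, and the values are then between 1.07 and 1.09 points.

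**Figure D4:**
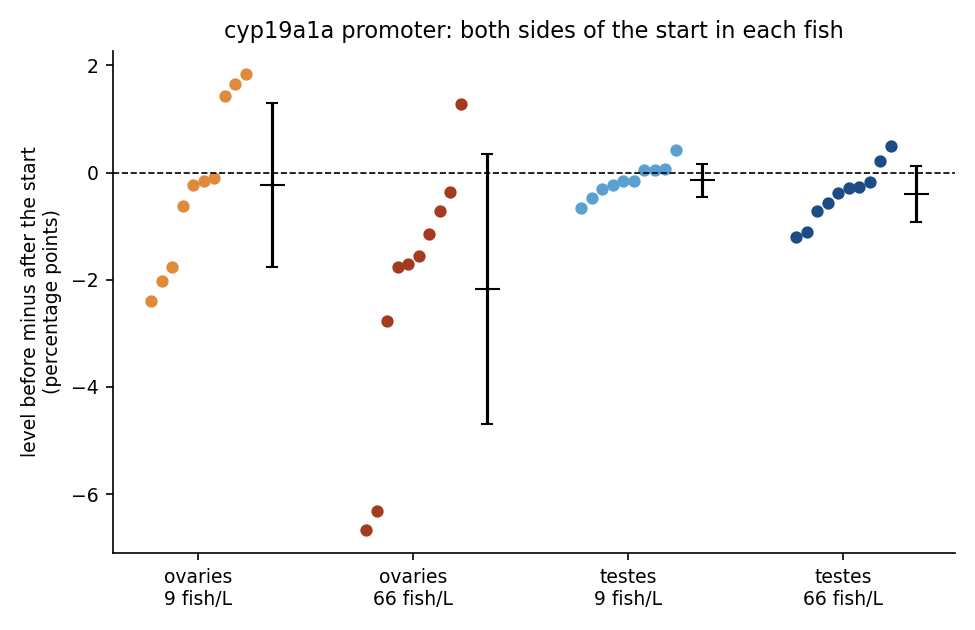
Level before minus level after the transcription start (percentage points) in each of the 40 fish, in 4 groups of 10 with 1 point per fish, and the group mean with a bar of 1 SD to the right of the points. Ovaries at 66 fish/L reach down to −6.68 points, whereas ovaries at 9 fish/L stay between −2.40 and 1.85 and all testes between −1.20 and 0.49.

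Between densities, before minus after was −0.24 ± 1.53 points (SD, n = 10) in ovaries at 9 fish/L, from −2.40 in ovary G17 over a median of −0.20 to 1.85 in ovary G5. In ovaries at 66 fish/L it was −2.17 ± 2.52 points (SD, n = 10), from −6.68 in ovary G26 over a median of −1.63 to 1.28 in ovary G11. It was below 0 in 7 of 10 and in 9 of 10 ovaries, and the groups overlapped. This comparison was added after the values had been seen. The difference of −1.93 points did not pass the threshold (exact permutation test, *p* = 0.0505, n = 20, adjusted *p* = 0.202), and in testes it was −0.26 points (exact permutation test, *p* = 0.195, adjusted *p* = 0.658).

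The ovaries that departed most from 0 were G26 with −6.68 and G3 with −6.31 points, both at 66 fish/L. In ovary G26 the mean was 26.2% before and 32.9% after the start, and in ovary G3 33.6% and 39.9%. The sites of a single ovary were spread by an SD of 3.12 ± 0.73 points (SD over 10 fish) at 9 fish/L and of 4.55 ± 1.25 points at 66 fish/L, with ranges of 2.17 to 4.88 and 2.91 to 6.59 that overlap.

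Fish that were high before the start were also high after it. Both sides are read from the same molecules of a fish, so this restates the correlations between sites given above. In ovaries, both sides correlated with r = 0.958 and rho = 0.95 (permutation tests with 100000 resamples, *p* = 1e-05 each, the smallest possible, n = 20), and r was 0.940 without the 2 ovaries farthest from the median. Within densities r was 0.979 at 9 fish/L and 0.948 at 66 fish/L. In testes rho was 0.925 and r 0.998 (permutation tests, *p* = 1e-05 each, n = 20), and r fell to 0.915 without the 2 farthest testes, G24 among them. Within densities r was 0.960 and 0.998.

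Of the other amplicons, that of *hsd17b1*, the gene of an enzyme that interconverts weak and potent estrogens in mammals, ranked the ovaries most like *cyp19a1a*. Its level over 6 sites was 31.3% ± 6.68 in the 20 ovaries (SD), from 22.1% over a median of 30.9% to 43.6%. The levels of both amplicons correlated with r = 0.676 (*p* = 0.00118) and rho = 0.681 (*p* = 0.00122, permutation tests with 100000 resamples, n = 20), with adjusted *p*-values of 0.0118 and 0.0122 over the 10 relations of 5 other amplicons in both sexes. Without the 2 ovaries farthest from the median of *cyp19a1a*, r was 0.524. Within densities it was 0.864 at 9 fish/L and 0.519 at 66 fish/L.

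**Figure D5:**
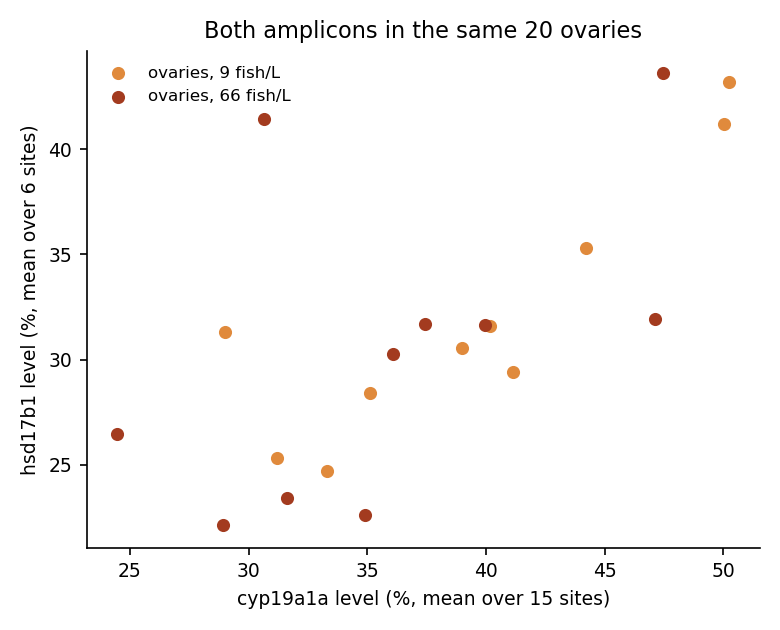
Methylation level (%) of the *hsd17b1* amplicon (mean over 6 sites) against that of *cyp19a1a* (mean over 15 sites) in the same 20 ovaries, 1 point per fish, with 10 ovaries at 9 fish/L and 10 at 66 fish/L in separate colours. Ovaries with a high level at *cyp19a1a* tend to have a high level at *hsd17b1*, with r = 0.676.

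The next in ovaries was *hsd11b2*, the gene of an enzyme that inactivates cortisol, with rho = 0.493 (permutation test, *p* = 0.0288, adjusted *p* = 0.0959, n = 20) and r = 0.514 (*p* = 0.0216, adjusted *p* = 0.108), and r = 0.318 without the 2 farthest ovaries. Within densities r was 0.768 and 0.226. The other 3 amplicons had rho between 0.003 and 0.281 in ovaries. In testes, *cyp11c1*, the gene of an enzyme of cortisol and androgen synthesis, came first with rho = 0.516 (permutation test, *p* = 0.0219, adjusted *p* = 0.0959, n = 20), and *hsd17b1* second with rho = 0.358 (*p* = 0.121, adjusted *p* = 0.304).

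Pearson's r over all testes was 0.070 for *cyp11c1* and −0.127 for *hsd17b1* (permutation *p* = 0.801 and 0.621, adjusted *p* = 0.890 each), and 0.486 and 0.533 without the 2 testes farthest from the median. Within densities it was 0.731 and 0.119 for *cyp11c1*, and 0.667 and −0.314 for *hsd17b1*, at 9 and 66 fish/L. Leaving out testis G24 brought rho to 0.575 for *cyp11c1* and 0.556 for *hsd17b1* (permutation tests, adjusted *p* = 0.0479 each, n = 19). The amplicons of a fish come from the same DNA, and whether a property of the whole sample lies behind these correlations was not tested.

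Among the 6 amplicons, the sex difference of *cyp19a1a* was smaller than that of *hsd11b2*, at 62.1 ± 1.60 points (SE, n = 40), and was followed by *hsd17b1* with 48.1 ± 1.503 points. The opposite direction was seen at *dmrt1*, a regulator of testis development, with −28.9 ± 1.76 points. In ovaries, the values on both sides of the start were close at *cyp19a1a* and *dmrt1* and farther apart at *hsd11b2* and *cyp11c1*. Before minus after the start was −1.20 ± 2.26 points at *cyp19a1a* and −15.6 ± 3.98 points at *hsd11b2* in ovaries (SD, n = 20), a difference that was not tested between the amplicons.

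Besides the 15 sites, the lists hold 33 other cytosines inside the amplicon with 472 values. These had a median coverage of 3 reads and a highest coverage of 135 reads. Of the 190 values covered by more than 5 reads, 187 were at 0%, and the highest was 0.917%. They carry no more than 2 methylated reads each and were left out of the levels above.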

How the data were processed

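Gonadal DNA of 40 zebrafish was measured by MBS. The authors trimmed reads with Trim Galore (0.4.5 in the submitters' processing notes) and aligned them to bisulfite-converted GRCz11 with Bismark (16.0 in these notes, another version in the methods). By the methods, reads were deduplicated and calls were extracted in the CpG context. The deposited reads are not taken as separate molecules here. The deposited percent values are the methylation level of a cytosine, and the deposited counts of methylated and of unmethylated reads are whole and not normalized. In 7221 values, 0 differed from the percent given by their counts by more than 1e-06. The coverage minimum of the methods (more than 5 reads) was applied here. Amplicon coordinates, primers and the start come from the supplementary table of amplicons. Densities and periods come from the supplementary table of samples, whose codes match the labels. The genome sequence was not used here, so no promoter sequence is shown and motifs were not searched.

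The level of a fish is the unweighted mean over the 15 sites, or over those of a side. Groups come from the labels. Densities were compared with two-sided exact permutation (184756 splits), sexes by permutation within density, and sides by sign flips (100000 resamples). Single sites needed at least 6 fish per group. *p*-values were adjusted by the Benjamini-Hochberg method, with a threshold of 0.05. All 15 sites are named, with the ends of each comparison and spread, the 2 most similar amplicons per sex, and fish at the ends of a group. The amplicon, its sites and the lists were chosen with earlier results of these data known. Alternatives were other coverage minima (none, 30 or 100 reads), all listed cytosines, medians, pooled reads, trimmed means, fish left out, a quasi-binomial model, a block by code number and the two-way ANOVA and Tukey test of the study. The scripts were tested on simulated data. Statistics used scipy 1.17.1 and statsmodels 0.14.6 in Python 3.11.15, with pandas 2.3.3 and numpy 2.4.6 for tables and matplotlib 3.10.9 for plots.

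Code numbers occur at both densities in 4 pairs of each sex, and nothing says what a shared number means. Over the 99 CpG sites, deviations from the group mean correlated between same-numbered testes with r = 0.623 to 0.943, but without the *hsd17b1* amplicon with r = −0.361 to 0.128, and differently numbered testes ranged from −0.958 to 0.975. In ovaries r was −0.396 to 0.239.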

Additional observations from a re-analysis of the deposited data

Results flagged for a closer look

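A single fish, testis G24 at 66 fish/L, stood apart from the other 9 testes of its group by more than Dixon's 95% limit. It did so in its level over the 15 sites (69.5%), before the start (69.1%), after the start (70.3%) and at each of the 15 sites. From −269 inwards its sites had 73.0%, 70.3% and 73.0% in the outer cluster, 62.2% at −152 and at −149, 67.6% at −117, 70.3% at −112 and −45 and 73.0% at −7. After the start they had 78.4% at +38, 70.3% at +43, 67.6% at +48, 70.3% at +51, 64.9% at +90 and 70.3% at +116. Each of these rests on 37 reads, and at −152 the 95% Wilson interval of its 23 methylated reads of 37 runs from 46.1% to 75.9%. The other 9 testes had between 88.0% and 97.5% at these sites. In all, 76 groups and measures were looked at and 18 were marked, all of them this fish. For normally distributed values, chance alone marks about 1 in 20 groups. The rate was not measured for these levels, where 1 fish rests on 37 reads. The 18 are not independent, since they are the same reads. In the other 5 amplicons this testis had 90.6% at *cyp11c1*, 91.7% at *hsd11b2*, 80.3% at *hsd17b1*, 1.93% at *dmrt1* and 0.508% at *dnmt1*. The means of its group of 10 were 91.1% ± 1.78, 90.6% ± 1.84, 79.3% ± 0.85, 2.67% ± 0.86 and 0.479% ± 0.067 (SD). It was the highest of the group at *hsd17b1* and the lowest at *dmrt1*. Why this testis stands apart at *cyp19a1a* was not tested.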

How the results depend on the processing

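Of 466 values recomputed under 11 other settings, 429 kept their direction and their side of the threshold, as did 890 of 920 with 1 fish left out. The sex differences kept both in all of them, and density was called in none. The changes were as follows. Without testis G24, whether by a minimum of 100 reads or by leaving out fish under 100 reads, the density difference in testes turned to 0.00378 points and that after the start to 0.107, and so did single sites (0.112 at −269, 0.0733 at −258, 0.471 at −117, 0.447 at +38, 0.0253 at +48, 0.344 at +51 and 0.350 at +90). The 20% trimmed mean gave 0.0826, 0.0585 before and 0.119 after the start for that difference, and a testis minus ovary difference in before minus after of 0.768 (adjusted *p* = 0.00511). The quasi-binomial model on reads gave a density difference of −5.44 points in ovaries (adjusted *p* = 0.606), and it turned the direction at single sites, to −2.01 at +38 in ovaries, and 0.0375 at +90, 0.344 at +51, 0.260 at +38, 0.393 at −117 and 0.0711 at −269 in testes. With all listed cytosines, which add shallow values near 0%, before minus after was 0.959 in ovaries, 9.61 in testes and 8.65 for testes minus ovaries (adjusted *p* = 2e-05), and the interaction −1.82, with −2.27 before and −1.13 after the start. With medians over sites, before minus after in ovaries was −0.997 (adjusted *p* = 0.0684). Without fish under 100 reads, rho in testes was 0.575 with *cyp11c1* and 0.556 with *hsd17b1*.

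With 1 fish left out, the density difference in ovaries ranged from −4.77 to −2.22 points (before the start −5.66 to −3.01, after it −3.58 to −0.992), that in testes from −2.87 to 0.00378 (before −2.98 to −0.0649, after −2.72 to 0.107), the interaction from −0.212 to 3.49 (before 0.477 to 4.19, after −1.28 to 2.43), and testes minus ovaries in before minus after from 0.646 to 1.09. In the block by code number, with 4 pairs of fish, the paired density difference was −7.54 points in ovaries (exact sign-flip test, *p* = 0.25) and −6.84 in testes (*p* = 0.375), where the smallest possible *p* is 0.125. The testis pairs include G24, with 94.8% at 9 fish/L and 69.5% on 37 reads at 66 fish/L. No value of the block without that pair is given here. The block changed no call. Over the 99 CpG sites, 1 of 8 testes and 0 of 8 ovaries correlated best with the fish of their own number. Over the 15 sites of *cyp19a1a* alone it was 2 of 8 testes and 3 of 8 ovaries.

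Between ovaries the SD of fish means was 7.45 points, and the median counting error of a single site was 0.586 points, which leaves out PCR copies. How much of the spread comes from the number of molecules sampled was not tested. In testis G24 the counting error of a site was 7.57 points.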
